A study of Aedes albopictus with 4 samples.

Results

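Among the 25320 genes measured in larvae of Aedes albopictus, the Asian tiger mosquito, 36 carry a product name of the ecdysone or juvenile hormone pathway. They were chosen by a rule on names, with earlier results of these data known. A gene entered when its product name contained ecdyson, eclosion, juvenile hormone, Krueppel homolog 1, FTZ-F1, HR3, hormone receptor 4, E75, broad-complex, nuclear hormone receptor, or cytochrome P450 302, 306, 307 or 315. Esterases and juvenile hormone-binding proteins were left out. The terms ecdysis, methoprene, E74 and cytochrome P450 314 were also searched and brought in 0 genes by themselves. All 36 genes code for protein.

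The larvae were whole, in the fourth instar, and sampled at the 72 h time point. The 2 diquat libraries came from larvae exposed to diquat, a bipyridyl herbicide that passes electrons to oxygen, at 1/5 of the LC50 (the concentration lethal to 50% of animals). The 2 control libraries came from larvae given no treatment. The strain, the number of larvae pooled per library and the time since the last moult were not given in the sources used here, and the design text speaks of duplicates of 1 control and 1 treated sample. The p-values may therefore measure only technical spread.

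Ecdysteroids and juvenile hormone together time insect moults. The prothoracic glands make ecdysone from dietary sterols through a chain of cytochrome P450 enzymes, and peripheral tissues turn it into 20-hydroxyecdysone. That hormone binds the ecdysone receptor with its partner ultraspiracle and switches on early genes, which in turn set a cascade of further nuclear receptors. Juvenile hormone, made in the corpora allata, acts through Krueppel homolog 1 to keep a moult larval, and eclosion hormone is a brain peptide that starts the shedding of the old cuticle.

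Recovered read totals of the controls were 34502559 and 39242657 and those of the diquat group 45243090 and 48383964, with 22372 to 22669 genes above 0. Values below are normalized counts, the authors' reads per gene divided by 1 factor per library, and they are compared only within a gene because they are not per length. A gene was tested when its mean over the 4 libraries was at least 10. It was called when limma's p, adjusted by Benjamini-Hochberg over all 17992 tested genes, was under 0.05. Fold changes are diquat against control on the log2(value + 1) scale, ± SE, n = 2 per group. In whole larvae, fewer cells of a type and less RNA per cell cannot be told apart.

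Of the 36 genes 33 were tested, 8 were higher in diquat larvae, 12 were lower and 13 were not called. The 20 calls stand beside a background of 48.8% of all tested genes called, 26.7% being higher and 22.0% lower. The diquat values lay together on one side of both controls for 25 of the 33 genes, 10 above and 15 below, where 73.0% of all tested genes did so. The median log2 fold change of the 33 genes was -0.06, and that of all tested genes was -0.0028. Most changes were modest. At least 1.5-fold changes were called for 4 of the 33 genes, against 16.7% of all genes. At least 2-fold changes were called for 2, against 5.15% of all genes, namely cytochrome P450 307a1 upward and 1 eclosion hormone-like gene downward. Without diquat replicate 1 the number of higher calls was 5 in place of 8.

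The genes for the ecdysone receptor, E75, HR3, HR38 and FTZ-F1, all nuclear receptors, fell by 23.6% to 31.7%, and the gene for the early factor E74EF by 33.5%. Krueppel homolog 1 (LOC109409311) rose, and genes of ecdysteroid synthesis went in both directions. The calls by role were 3 higher and 1 lower among 8 genes of ecdysteroid synthesis, 1 higher and 5 lower among 10 receptor and early genes, and 1 higher and 4 lower among 8 other nuclear receptors. They were 3 higher and 1 lower among the 5 tested juvenile hormone genes, and 0 higher and 1 lower among the 2 tested eclosion hormone genes. The median log2 fold changes of these roles were 0.18, -0.16, -0.14, 0.13 and -0.98, in that order. Beside these counts, 26.7% of all tested genes were higher and 22.0% lower. In the fifth of tested genes with the longest genomic span, described below, 16.8% were higher and 55.6% lower. The median span was 95.8 kb for the receptor and early genes and 112 kb for the other nuclear receptors.

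**Figure D1:**
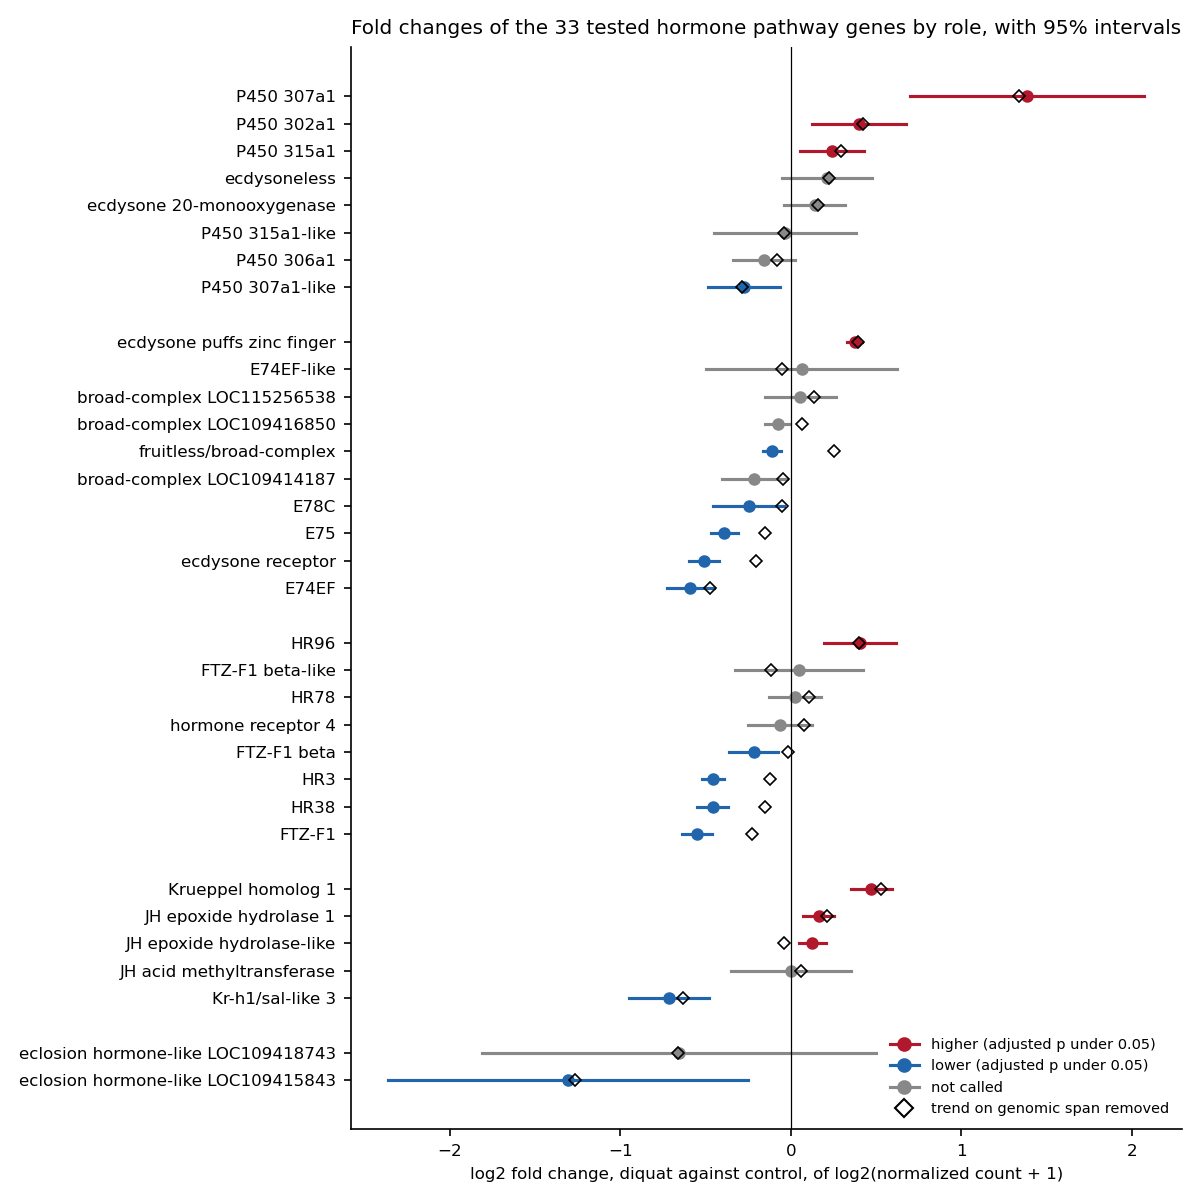
Log2 fold change of each of the 33 tested hormone pathway genes, diquat against control, in 5 blocks by role (synthesis, receptor and early genes, other nuclear receptors, juvenile hormone, eclosion hormone). Circles are the fitted values, bars their 95% intervals, and open diamonds the values after each library's trend on genomic span was removed; the receptor genes at the lower end of their blocks move toward 0 by that step.

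The ecdysone receptor gene (EcR, LOC109414899), whose product binds the hormone, had 3514 and 3674 normalized counts in controls and 2481 and 2560 with diquat. The groups did not overlap and the level fell by 29.8% (log2 fold change -0.51 ± 0.04, limma adjusted p = 1.39e-10). Ultraspiracle (LOC115256313), its partner and not among the 36 genes, had 5570 and 5706 against 5033 and 5306. That smaller fall (-0.13 ± 0.03, limma adjusted p = 0.00365) was lost without diquat replicate 1 (-0.087). It turned into a rise of 0.18 (adjusted p = 5.31e-05) with the span trend removed, a step described after the receptor genes. Ultraspiracle is named here for its role, after its values were seen.

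Among the early genes, the E74EF gene (LOC109418949), named for the fly ecdysone-induced ETS-type transcription factor, had 1575 and 1625 normalized counts in controls and 991 and 1140 with diquat. It fell by 33.5%, a log2 fold change of -0.59 ± 0.07 (limma adjusted p = 3.78e-08). E75 (LOC109425803), an ecdysone-induced nuclear receptor, had 5550 and 5129 against 4188 and 3963. Its log2 fold change was -0.39 ± 0.04 (limma adjusted p = 5.47e-09), and all diquat values lay below all control values. E78C (LOC109399436), another ecdysone-induced receptor in flies, had 494 and 501 against 427 and 411. Its call (-0.25 ± 0.10, limma adjusted p = 0.0431) was lost when any 1 of the 4 libraries was left out (-0.28 to -0.22), with no filter on low values and by DESeq2.

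The broad-complex genes encode BTB zinc finger factors that mark the passage to the pupa in flies. Of the 3 named for broad-complex alone, 0 were called. LOC109416850 had 5026 and 4864 against 4581 and 4792 (-0.08, 95% interval -0.15 to -0.00), LOC109414187 had 621 and 626 against 509 and 568 (-0.21, -0.40 to -0.02), and LOC115256538 had 441 and 479 against 465 and 491 (0.06, -0.15 to 0.26). The values of LOC109416850 and LOC109414187 were lower in both diquat libraries, with limma adjusted p of 0.0765 and 0.057. With the span trend removed these 2 genes stood at 0.066 and -0.043 and were not called. Another gene (LOC109422828) has a name that joins fruitless and broad-complex and had 11355 and 11116 normalized counts in controls against 10428 and 10376 with diquat. It was called lower at a small size (-0.11 ± 0.02, limma adjusted p = 0.000534), but with the span trend removed it was called higher (0.25, adjusted p = 8.16e-10). A gene nested in it, LOC115254047, rose by 0.53 on the log2 scale.

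The zinc finger protein on ecdysone puffs gene (LOC109416338) went the other way. Its fly counterpart is an RNA-binding protein found at active ecdysone puffs. It had 16034 and 15757 normalized counts in controls and 20378 and 20862 with diquat, a rise of 29.7% (0.38 ± 0.02, limma adjusted p = 3.06e-14). The second E74EF gene (LOC134283946), with 71 and 54 against 61 and 68, was not called, and its 95% interval ran from -0.50 to 0.63.

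Of the 8 other nuclear receptor genes, HR3, FTZ-F1 and HR38 fell by similar amounts. HR3 (LOC109417772), which in flies shuts down early genes and prepares FTZ-F1, had 6245 and 6263 normalized counts in controls and 4542 and 4576 with diquat. It fell by 27.1% (-0.46 ± 0.03, limma adjusted p = 5.54e-12). FTZ-F1 (LOC109404941), a competence factor of the later cascade, had 4397 and 4212 against 2820 and 3061. Its log2 fold change was -0.55 ± 0.04 (limma adjusted p = 3.33e-11). HR38 (LOC109622172), which in flies can take the place of the ecdysone receptor beside ultraspiracle, had 3280 and 3107 against 2328 and 2316 (-0.46 ± 0.04, limma adjusted p = 2.37e-09). In each of these 3 genes the highest diquat library was below the lowest control.

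FTZ-F1 beta (LOC109429626), a relative of FTZ-F1, had 1096 and 1127 normalized counts in controls and 922 and 989 with diquat. Its fall (-0.22 ± 0.07, limma adjusted p = 0.0104) lost the call without diquat replicate 1 (-0.17). HR96 (LOC115267359), a fly receptor linked to the response to foreign compounds and to sterol balance, was the only gene of these 8 called higher. Its values were 407 and 374 in controls and 509 and 523 with diquat (0.40 ± 0.10, limma adjusted p = 0.00176). Hormone receptor 4 (LOC109398962), at 695 and 803 against 658 and 776, HR78 (LOC115253476), at 946 and 859 against 936 and 898, and the FTZ-F1 beta-like gene (LOC134283928), at 141 and 135 against 138 and 147, were not called. Their 95% intervals on the log2 scale were -0.25 to 0.12, -0.13 to 0.18 and -0.33 to 0.42. The FTZ-F1 beta-like gene lies inside the klarsicht gene LOC109429628, and its value equals 1.37% of that gene's value. It also lies inside the uncharacterized gene LOC134287466, where the share is 9.91%.

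**Figure D2:**
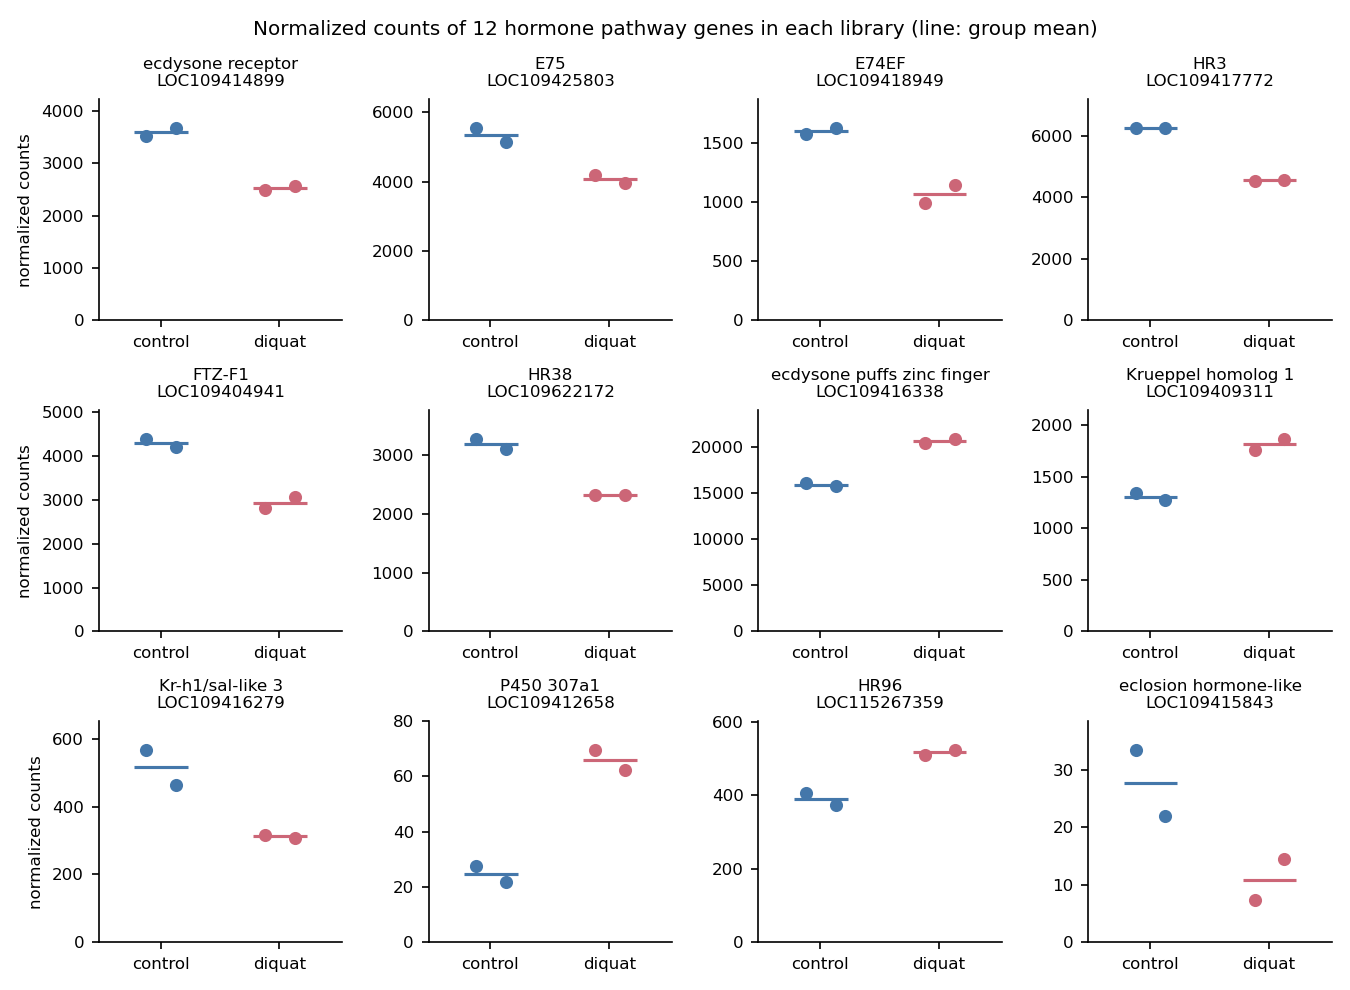
Normalized counts of 12 hormone pathway genes in each of the 4 libraries, 1 panel per gene with its own vertical axis from 0; points are libraries and lines are group means. The 2 groups do not overlap in any of the 12 panels, with EcR at 2481 and 2560 in diquat libraries against 3514 and 3674 in controls and Krueppel homolog 1 at 1757 and 1867 against 1338 and 1272. All 12 genes were picked among the called ones. Over all tested genes 73.0% had both diquat libraries on one side of both controls.

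The genes that fell were mostly long ones. Tested genes were divided into 5 groups of equal size by genomic span, the distance from the start to the end of a gene with its introns, in the AalbF5 annotation. The group of longest genes held 16 of the 33 hormone pathway genes, of which 10 were lower and 0 higher; 55.6% of all genes in that group were lower and 16.8% higher. The other 4 groups held 17 hormone pathway genes, of which 8 were higher and 2 lower; 29.2% of all genes there were higher and 13.6% lower. The median log2 fold change of all genes in the longest group was -0.23. EcR, E74EF, E75, HR3, HR38 and FTZ-F1 all belong to that group and lay below this median, as did E78C and LOC109416279. The 3 broad-complex genes, hormone receptor 4, HR78, FTZ-F1 beta, LOC109422828 and LOC109411508, also of that group, lay above it. The group is wide, from 39.2 to 1549 kb. EcR, E75, HR3, HR38 and FTZ-F1 span 210 to 617 kb, E74EF 66.6 kb and LOC109422828 883 kb. The 3 broad-complex genes, hormone receptor 4 and HR78 span 48.8 to 107 kb. This median is therefore not a like comparison for all of them.

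When each library's trend on genomic span was removed, the 33 genes gave 8 higher and 9 lower calls, against 27.4% higher and 17.0% lower of all tested genes. Of the 6 receptor-cascade genes with the lowest adjusted p among those that fell, all kept a call at a smaller size. Their log2 fold changes became -0.20 for EcR, -0.15 for E75, -0.47 for E74EF, -0.12 for HR3, -0.23 for FTZ-F1 and -0.15 for HR38. The adjusted p ran from 5.56e-07 for E74EF to 0.00625 for HR38. E78C (-0.05) and FTZ-F1 beta (-0.02) were no longer called. Whether span has a part in these falls was not tested beyond this step.

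**Figure D3:**
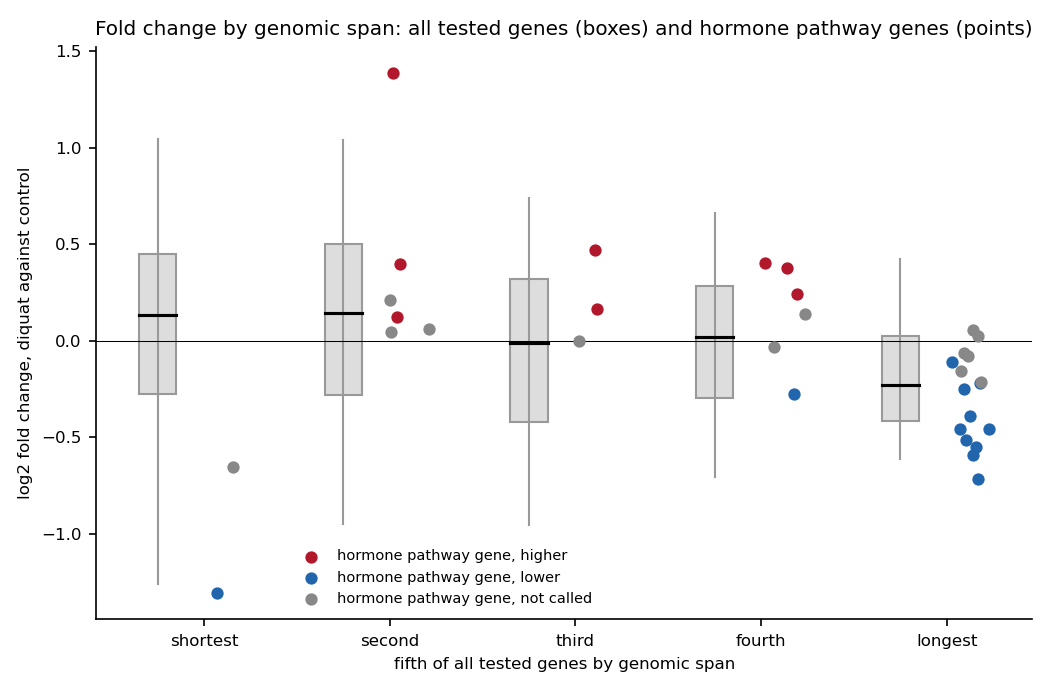
Log2 fold change in 5 groups of genes by genomic span, from the shortest to the longest. Grey boxes give the quartiles of all tested genes with the median as a line and thin lines to the 5th and 95th percentiles; points are the 33 hormone pathway genes coloured by call, and 10 of the 12 lower ones stand in the longest group, where the median of all genes is -0.23.

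Genes of ecdysteroid synthesis did not move as 1 block. Cytochrome P450 307a1 (LOC109412658), of the family whose fly members spook and spookier act early in the ecdysone pathway, had 27.5 and 21.9 normalized counts in controls and 69.6 and 62.3 with diquat, from 23 and 21 reads against 76 and 73. That is 2.62-fold higher (1.39 ± 0.33, limma adjusted p = 0.00108). The related P450 307a1-like gene (LOC109397829) had 506 and 540.5 against 465 and 402 and was called lower (-0.27 ± 0.10, limma adjusted p = 0.0297), a call lost without control replicate 2 (-0.23) or diquat replicate 2 (-0.17) and by DESeq2. Cytochrome P450 302a1 (LOC109399201), named as the fly enzyme disembodied, had 227 and 288 against 351 and 325 (0.40 ± 0.13, limma adjusted p = 0.0157). Cytochrome P450 315a1 (LOC109406906), named as the fly enzyme shadow, had 526 and 574 against 628 and 673 (0.24 ± 0.09, limma adjusted p = 0.0286). Both of these rises lost their call without control replicate 1, diquat replicate 1 or diquat replicate 2, with values of 0.23 to 0.45 and 0.18 to 0.29, and under quantile scaling and DESeq2.

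The remaining synthesis genes were not called. They were P450 306a1 (LOC109411508, the phantom-type enzyme) at 678 and 634 against 568 and 610 and the P450 315a1-like gene (LOC134285350) at 141 and 118 against 147 and 108. The ecdysone 20-monooxygenase (LOC109413055), which makes 20-hydroxyecdysone, had 568 and 568 against 618 and 634, with a 95% interval of -0.04 to 0.32. The ecdysoneless gene (LOC109621709), named for a fly mutant short of ecdysone, had 267 and 258 against 306 and 302, with an interval of -0.05 to 0.48. In the last 2 genes both diquat libraries were the higher ones. In P450 306a1 both were the lower ones, with a 95% interval of -0.34 to 0.03. For the P450 315a1-like gene, where the groups overlapped, the interval was -0.45 to 0.38.

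Position limits some of these values. P450 315a1 lies inside the annotated gene LOC109406996, an UNC93-like gene that had 6285 and 6146 normalized counts in controls and 4683 and 4925 with diquat. How reads from the shared stretch were counted is unknown, and without strand they cannot be told apart. The P450 315a1 pair is separated by 5 annotated genes, and how reads of similar copies were divided was not given in the sources used here.

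In the juvenile hormone branch, the gene of the juvenile hormone acid methyltransferase (LOC109408242) was not called. It had 178 and 158 normalized counts in controls and 153 and 183 with diquat, a log2 fold change of 0.00 with an interval of -0.35 to 0.35. It lies inside the Rab-3 gene LOC109408902, and its value equals 29.3% of that gene's value. The 2 epoxide hydrolases, which open the epoxide ring of the hormone, were slightly higher. Juvenile hormone epoxide hydrolase 1 (LOC109420926) had 2447 and 2434 against 2714 and 2758 (0.16 ± 0.04, limma adjusted p = 0.00314). The epoxide hydrolase-like gene (LOC109412662) had 3536 and 3612 against 3937 and 3865 (0.13 ± 0.04, limma adjusted p = 0.00768); it lost the call without diquat replicate 1 (0.11) and stood at -0.040 once the span trend was removed. The 2 hydrolases are neighbours with 0 annotated genes between them, and their summed value equals 91.5% of that of LOC109420928, the gene that contains them; whether the same reads are counted in both is unknown.

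Krueppel homolog 1 (LOC109409311), the zinc finger factor through which juvenile hormone acts, had 1338 and 1272 normalized counts in controls and 1757 and 1867 with diquat. It rose by 38.8% (0.47 ± 0.06, limma adjusted p = 1.44e-07), and the lowest diquat library was above the highest control. It kept its call in all 14 alternatives that gave it a value, at log2 fold changes of 0.43 to 0.53. A second gene, LOC109416279, bears the joint name of Krueppel homolog 1 and sal-like protein 3 and went the opposite way. It had 567 and 464 against 316 and 308 (-0.72 ± 0.11, limma adjusted p = 8.22e-06), the largest fall among the 33 tested hormone pathway genes outside the eclosion hormone genes. It lies inside LOC109424083, which also fell, from 4570 and 4408 to 3137 and 3253 (-0.49), and reads of the 2 genes cannot be told apart. A last gene with the name (LOC109424089, also called a zinc finger protein) had 5.98 and 17.7 against 12.8 and 2.56 and was too low to be tested.

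Eclosion hormone genes were low in whole larvae, with at most 38 reads per gene and library. LOC109415843 had 33.5 and 21.9 normalized counts in controls and 7.33 and 14.5 with diquat, from 28 and 21 reads against 8 and 17. It was called lower (-1.31 ± 0.51, limma adjusted p = 0.0371), a call lost without control replicate 1 (-1.01) or diquat replicate 1 (-0.86), by DESeq2, and with no filter on low values or quantile scaling. Its neighbour LOC109418743 had 45.5 and 12.5 against 9.16 and 23.9, so that the groups overlapped, and was not called (-0.66, interval -1.81 to 0.50); without control replicate 2 it was called lower (-1.55). LOC115265703, at 8.37 and 6.26 against 0.92 and 4.27, and LOC109406565, at 4.78 and 0 against 0 and 1.71, were not tested. The 4 genes together had 77 and 39 reads in controls and 19 and 52 with diquat, and these sums overlap between the groups.

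Markers of tissues were examined as summed normalized counts, as context for RNA taken from whole animals. Epidermis and cuticle genes summed to 498838 to 503590 in controls and to 294519 to 294825 with diquat, with 104 of 126 tested genes lower and 5 higher. Neuron markers were at 16924 to 17057 in controls and 14850 to 14947 with diquat (7 of 11 lower, 2 higher), gut markers at 367751 to 372202 and 314243 to 317579 (26 of 70 higher, 16 lower), and fat body markers at 1105290 to 1110223 and 982538 to 986340 (4 of 15 in each direction). Muscle markers were at 645888 to 649608 and 818424 to 820801 (16 of 50 in each direction), and haemocyte markers at 50446 to 50475 and 62519 to 63257 (16 of 31 higher, 3 lower). Among all tested genes 26.7% were higher and 22.0% lower. Of the listed markers, 5 of 101 gut genes and 3 of 164 cuticle genes were at 0 in all libraries. The part of these shifts in the hormone pathway results was not tested.

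The surrounding pathway was read from 5 further name lists, 96 genes in all, of which 92 were tested, 29 were higher and 27 lower, beside 26.7% higher and 22.0% lower of all tested genes. With the span trend removed the 92 genes gave 32 higher and 17 lower calls, beside 27.4% and 17.0% of all tested genes. The list of ecdysteroid supply and turnover had 7 higher and 3 lower of 13 tested, with a median log2 fold change of 0.28. It was matched by name, and not every gene in it supplies or clears the hormone. The ecdysteroid-regulated 16 kDa protein gene (LOC115253603) is among the higher ones. The torso-like gene and the torso receptor gene (LOC109410267) are among the lower ones. In this list 2 genes named NPC intracellular cholesterol transporter 1 homolog 1b, of the family that moves sterols into cells, had the largest rises. LOC134288280 had 654 and 727 normalized counts in controls and 1907 and 1955 with diquat (1.48 ± 0.07, limma adjusted p = 4.06e-16), and LOC134284447 had 221 and 220 against 640 and 642 (1.53 ± 0.11, limma adjusted p = 5.92e-12). The adrenodoxin-like protein 2 gene (LOC115264700), of the carrier family that feeds electrons to mitochondrial P450s, had 4618 and 4712 against 7670 and 7290 (0.68 ± 0.03). The torso-like gene (LOC109429711) had 1237 and 1229 against 786 and 829 (-0.61 ± 0.07). Cytochrome P450 18a1 (LOC115264182), which inactivates ecdysteroids in flies, had 559 and 487 against 314 and 393 (-0.57 ± 0.12, limma adjusted p = 0.000192). The sterol desaturase neverland (LOC115255620), the entry step of ecdysone synthesis, had 144 and 157 against 189 and 177 and was not called (limma adjusted p = 0.17). These last 2 genes were picked for their roles after their values were seen.

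Supply of the juvenile hormone skeleton was represented by 30 tested genes, 15 higher and 1 lower, beside 26.7% and 22.0% of all tested genes. The median log2 fold change of the 30 genes was 0.22. Most of the rises were in genes named farnesol dehydrogenase, an enzyme that oxidizes farnesol on the way to the hormone. Of 20 tested, 12 were higher, 5 of them at least 2-fold, and 0 lower. Their median was 0.69 and their range -1.22 to 3.83. The name does not show which of these products act in juvenile hormone synthesis. LOC109400780 had 5690 and 5364 normalized counts in controls and 11398 and 11198 with diquat (1.03 ± 0.03). LOC109399572 had 1252 and 1156 against 2791 and 2675 (1.18 ± 0.06), and LOC109400783 had 1328 and 1395 against 2627 and 2591 (0.94 ± 0.05). Of these genes 6 lie inside LOC109400777, with a summed value equal to 91.0% of its own, and they may share reads as similar copies. The 9 genes of the mevalonate pathway had 3 higher and 1 lower. The acetyl-CoA acetyltransferase LOC115253562 had 19758 and 19996 against 22658 and 22865 (0.20 ± 0.02), and HMG-CoA reductase (LOC109430221), a rate-setting enzyme of that pathway named here after its values were seen, had 3677 and 3456 against 3134 and 3220 (-0.17 ± 0.04). The reductase stood at 0.048 with the span trend removed, and the acetyltransferase at -0.0032 under quantile scaling.

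Genes that break down juvenile hormone were split. Of 13 tested esterase genes 4 were higher and 6 lower, beside 26.7% and 22.0% of all tested genes. The median log2 fold change of the 13 genes was -0.23, or -0.40 with the same counts once the span trend was removed. LOC109412453 had 5386 and 5507 normalized counts in controls and 1418 and 1389 with diquat (-1.96 ± 0.04), and LOC109430352 had 6377 and 6436 against 2074 and 2027 (-1.64 ± 0.04). LOC109417756 also fell, from 1383 and 1395 to 769 and 887 (-0.75 ± 0.07). In the other direction, LOC109414915 had 111 and 94.9 against 348 and 371 (1.80 ± 0.16). The name does not show which of these products act on juvenile hormone.

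Partner nuclear receptors and cofactors had 1 higher and 8 lower of 19 tested (median -0.13). Among all tested genes 26.7% were higher and 22.0% lower, and among those of the longest group 16.8% and 55.6%. The median span of the 19 genes was 85.7 kb. With the span trend removed the balance of the 19 turned to 5 higher and 3 lower (median -0.075), beside 27.4% and 17.0% of all tested genes. A coactivator-named gene (LOC115258752) had 4752 and 4864 against 3400 and 3556 (-0.47 ± 0.04), and a photoreceptor-specific nuclear receptor-like gene (LOC109398729) had 1208 and 1325 against 925 and 926 (-0.45 ± 0.07). Nuclear receptor coactivator 7 (LOC109622365) had 9192 and 9518 against 8188 and 8225 (-0.19 ± 0.03) and turned to 0.16 with the span trend removed. The lutropin-choriogonadotropic hormone receptor gene (LOC109429338), which entered by name and is a membrane receptor, had 950 and 1078 against 772 and 760 (-0.40 ± 0.08), and was not called with the span trend removed (-0.17).

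Peptides of moulting and gland control with their receptors had 2 higher and 9 lower of 17 tested (median -0.32). Among all tested genes 26.7% were higher and 22.0% lower, and among those of the longest group 16.8% and 55.6%. The median span of the 17 genes was 84.9 kb. With the span trend removed 2 of the 17 were higher and 6 lower (median -0.16), beside 27.4% and 17.0% of all tested genes. A cardioacceleratory peptide receptor-like gene (LOC109429221) had 2313 and 2224 normalized counts in controls and 1696 and 1656 with diquat (-0.44 ± 0.05). An allatostatin-A receptor-like gene (LOC115257242) had 2111 and 2244 against 1615 and 1651 (-0.41 ± 0.05). The 2 named adipokinetic hormone/corazonin-related peptide receptor genes fell as well, LOC115253773 from 1773 and 1707 to 1290 and 1305 (-0.42 ± 0.06) and LOC109428047 from 843 and 821 to 587 and 528 (-0.58 ± 0.08). Of the peptides that act on the corpora allata, allatostatin-A (LOC109398469) had 4394 and 4386 against 5051 and 5046 (0.20 ± 0.03). The gene LOC109398470 lies inside it and has a value equal to 71.4% of its own. Whether the same reads are counted in both is unknown, so the rise may not belong to allatostatin-A. Allatotropins (LOC109431254) had 596 and 641 against 485 and 506 (-0.32 ± 0.09), a call lost without diquat replicate 1 (-0.29) and lost as well (-0.15) once the span trend was removed. Both peptides were named after their values were seen, and the neuron markers above were lower in the same libraries.

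**Figure D4:**
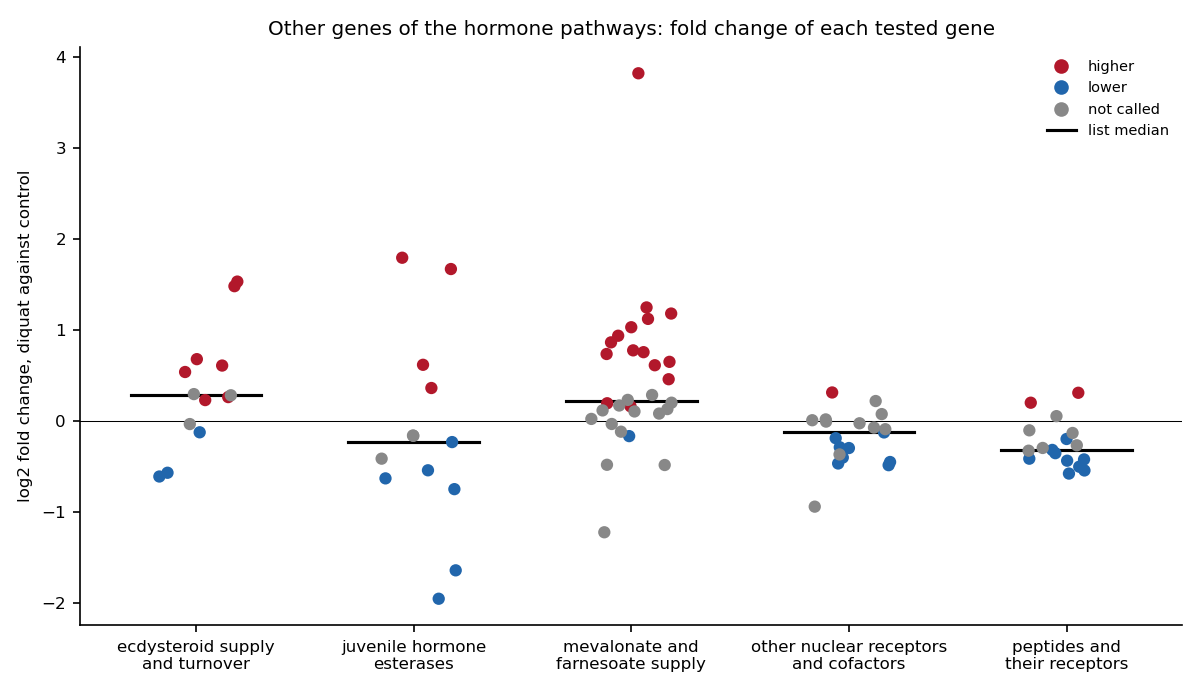
Log2 fold change, diquat against control, of each tested gene in the 5 further lists (13, 13, 30, 19 and 17 genes from left to right), coloured by call, with the list median as a line. The farnesol dehydrogenase genes make up most of the points above 0 in the mevalonate and farnesoate list, whose median is 0.22, and the peptide list has its median at -0.32.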

How the data were processed

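Reads per gene were taken from 1 table of 25320 genes and 4 libraries. Its values are a signal deposited by the authors as normalized expression counts, per the file headers. In each library 100% of the values were whole multiples of the lowest non-zero value (tolerance 1e-06), so whole reads were recovered by division. The submitters' processing notes list STAR 2.7.10a, fastp 0.12.4, bcl2fastq and DRAGEN without roles; the counter, strand setting, genome build and normalizing tool were not given in the sources used here.

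Genes with a mean of at least 10 were tested with limma 3.58.1 (R 4.3.3; lmFit, eBayes with trend) on log2(value + 1). Tests were two-sided, adjusted by Benjamini-Hochberg at 0.05 over all 17992 tested genes. Standard errors are limma's moderated ones. The variance between replicates was 2.62 (control) and 2.63 (diquat) times the variance expected from counting alone. Product names came from the table. Gene positions came from the AalbF5 table, in which all 25320 identifiers were found; it was used only for overlap, neighbours and the ranking by span. The members and gene lists were chosen with earlier results of these data known. Values in every library are given for called members with a mean of at least 50 and for members a role needs, and from each other list for up to 4 called genes with the smallest p and a mean of at least 50; exceptions are named where they stand.

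Alternatives were pseudocounts of 0.5 and 5, no filter, a mean of at least 50, median-ratio and quantile scaling, a replicate block, each library left out, edgeR 4.0.16 and DESeq2 1.42.0 on the recovered reads, removal of the span trend (loess, span 0.3), and placed genes without overlap only. The fit was tested on simulated libraries of the same comparison, diquat against control (17775 genes). Of 50 genes changed at each size, limma found 48 at 4-fold, 41 at 2-fold, 33 at 1.5-fold and 21 at 1.25-fold, with 2 false calls. The simulated spread was set from these same duplicates, and far fewer genes were changed than were called in the data. The 2 false calls therefore give no error rate for the calls in the data. Figures used Python 3.11.15 with pandas 2.3.3 and matplotlib 3.10.9.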

Additional observations from a re-analysis of the deposited data

How the results depend on the processing

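Of the 20 called hormone pathway genes, 12 (5 higher, 7 lower) kept their call and its direction in every alternative that gave a value, 8 lost or turned it somewhere, and 4 uncalled genes gained one: P450 306a1, 2 broad-complex genes (LOC109416850, LOC109414187) and the eclosion hormone-like gene LOC109418743. With genes that overlap another left out, 10461 genes were tested and 4955 called; 17 hormone pathway genes were tested, 9 called (4 higher, 5 lower), and the other 5 lists had 24 calls (14 higher, 10 lower) among 49 tested. That step tests fewer genes by construction. Leaving out 1 library gave 6833 to 8339 calls over all genes, 14 to 20 among the hormone pathway genes (5 to 8 higher, 9 to 12 lower) and 46 to 55 in the other lists (25 to 28 higher, 21 to 27 lower). With the span trend removed the other lists had 17 lower calls, and the sign turned for LOC109422828 (0.25), LOC109412662 (-0.040), LOC109622365 (0.16), ultraspiracle LOC115256313 (0.18) and HMG-CoA reductase LOC109430221 (0.048). Under quantile scaling the acetyltransferase LOC115253562 stood at -0.0032. The cause was not tested in these cases. As count tests on recovered reads, edgeR called 8829 genes with 20 of the hormone pathway, and DESeq2 7243 with 15 (6 higher, 9 lower).

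Libraries share replicate numbers between groups, but the deviations of same-numbered libraries correlated at 0.0118, so the numbers were not taken to pair them. With the replicate number as a block, 9056 genes and 20 hormone pathway genes were called.

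Depth limits the eclosion hormone genes and P450 307a1, which rest on at most 76 reads per library, and the 3 untested genes, with at most 17 reads.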

Other observations

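A pair of genes outside the name rule, chosen after their values were seen, belong to the same hormone cascade in other insects. The gene named mushroom body large-type Kenyon cell-specific protein 1-like (LOC134283973), a name given in honeybees to the counterpart of the fly ecdysone-induced gene E93, had 1197 and 1236 normalized counts in controls and 651 and 622 with diquat. It fell by 47.7% (log2 fold change -0.93 ± 0.07, n = 2 per group, limma adjusted p = 3.63e-11), was called in all 14 alternatives that gave it a value, and stood at -0.89 with the span trend removed. Protein hairy (LOC109411065), a repressor that responds to juvenile hormone in Aedes aegypti, had 1548 and 1279 against 1875 and 1931 (0.44 ± 0.07, limma adjusted p = 5.02e-06). These 2 results are given as values only.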
